A study of Mus musculus with 10 samples.

Results

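The nucleotide synthesis and one-carbon module is a set of 34 mouse genes, listed by name, that encode the enzymes of purine, pyrimidine and deoxynucleotide synthesis and the folate enzymes that supply them with one-carbon units. A gene was read from the probe set that carries its symbol alone and has the highest mean over the 10 arrays. By that rule 33 of the 34 genes were measured, all 33 passed the filter on low values, and they are 33 of the 17204 genes tested. Impdh2, the second isozyme of IMP dehydrogenase, has no probe set of its symbol alone and was not analysed here.

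The study profiled sorted splenic B cells of mice on the Balb/c background on 10 Affymetrix arrays, 1 array per sample. Naive B cells (n = 4) came from Balb/c mice that were not immunized. Germinal centre (GC) B cells, the dividing B cells that arise in an immune response and mutate their antibody genes, were taken at 14 days as λ+ PNA+ B220+ cells after intraperitoneal immunization with 50 µg of NP-CGG in alum, from 2 lines called B1-8 (n = 3) and V23 (n = 3). NP-CGG is the hapten NP coupled to chicken gamma globulin. Mice of both lines carry a targeted deletion of the endogenous JH locus and an immunoglobulin heavy chain transgene, VH186.2-Tg in B1-8 and V23-Tg in V23. The B1-8 heavy chain is known to bind NP with the higher affinity and the V23 heavy chain with the lower, each together with a λ light chain. Naive cells therefore differ from GC cells in immunization, in the heavy chain alleles and in the stain used for the sort, and these cannot be told apart below. The labels do not say that replicates are separate animals, so the p-values may measure only the spread between samples.

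Nucleotides are made along a de novo route, which builds the base from amino acids, bicarbonate and folate-bound one-carbon units on ribose phosphate, and along a salvage route, in which kinases and transferases recover bases and nucleosides. Ribonucleotide reductase turns ribonucleotides into the deoxynucleotides that DNA replication needs, and thymidylate synthase adds the methyl group that makes dTMP from dUMP. Resting lymphocytes need few deoxynucleotides, whereas GC B cells are among the fastest dividing cells of the mouse.

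The promoters of 4 enzymes show the DNA beside which these expression values can be read: Rrm2, the growth-regulated small subunit of ribonucleotide reductase and the member with the largest difference, Tyms and Tk1, which make dTMP de novo and by salvage, and Cad, which starts pyrimidine synthesis and whose probe set differed little. The windows hold 300 bases, from 250 before to 50 after the transcription start, and come from RefSeq on build GRCm38.p6. They are written 5′ to 3′ on the strand of the gene. Capitals mark E2F heptamers (TTCCCGC with its variants, which are TTGGCGC and also TTCGCGC and lastly TTGCCGC, searched on both strands) and the E-box hexamer CACGTG, which reads the same on both strands. The windows are chr12:24708004-24708303 on the plus strand for Rrm2, chr5:30073576-30073875 on the minus strand for Tyms, chr11:117825965-117826264 on the minus strand for Tk1 and chr5:31054530-31054829 on the plus strand for Cad.
Rrm2: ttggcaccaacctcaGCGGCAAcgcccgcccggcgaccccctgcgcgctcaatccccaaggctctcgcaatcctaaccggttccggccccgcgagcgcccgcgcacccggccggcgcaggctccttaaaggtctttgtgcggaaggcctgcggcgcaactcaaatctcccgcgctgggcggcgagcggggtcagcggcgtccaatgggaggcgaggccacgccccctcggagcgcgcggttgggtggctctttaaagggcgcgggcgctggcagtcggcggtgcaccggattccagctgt
Tyms: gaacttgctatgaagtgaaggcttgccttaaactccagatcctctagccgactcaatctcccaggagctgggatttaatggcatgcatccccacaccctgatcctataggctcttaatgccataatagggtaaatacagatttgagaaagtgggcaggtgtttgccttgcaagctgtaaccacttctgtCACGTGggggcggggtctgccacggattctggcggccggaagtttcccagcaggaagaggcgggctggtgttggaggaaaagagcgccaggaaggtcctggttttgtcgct
Tk1: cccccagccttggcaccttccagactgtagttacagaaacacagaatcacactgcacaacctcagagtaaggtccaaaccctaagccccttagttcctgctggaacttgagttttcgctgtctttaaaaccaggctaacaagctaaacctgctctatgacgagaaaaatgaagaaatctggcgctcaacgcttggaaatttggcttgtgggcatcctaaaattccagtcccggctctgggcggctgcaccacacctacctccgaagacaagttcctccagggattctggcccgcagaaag
Cad: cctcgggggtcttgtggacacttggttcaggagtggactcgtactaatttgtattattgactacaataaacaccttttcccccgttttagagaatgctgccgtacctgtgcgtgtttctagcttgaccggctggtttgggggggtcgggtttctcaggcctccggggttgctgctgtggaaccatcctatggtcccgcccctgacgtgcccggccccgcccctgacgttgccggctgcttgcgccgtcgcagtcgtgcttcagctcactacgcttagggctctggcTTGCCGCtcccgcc
Rrm2 holds the E2F heptamer TTGCCGC on the minus strand, 235 bases before the start, and the CCAAT pentamer 50 bases before it. Tyms holds the E-box 61 bases before the start and no E2F heptamer. In the Tk1 window neither the E2F heptamers nor the E-box occurs. A GC box, GGGCGG, searched on both strands, occurs in all 4 windows. It lies 225 and 75 bases before the start in Rrm2, 54 in Tyms, 13 in Tk1, and 56 and 35 in Cad. Cad holds TTGCCGC 36 bases after its start. None of the capitals overlaps a GC box or a CCAAT match.

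RefSeq windows were found for 30 of the 34 genes, 36 windows in all because some genes have several starts. An E2F heptamer occurred in 11 of the 36 (30.6%), against 9.57% of all 32851 windows and 12.1% of the 21262 windows of protein-coding genes. The E-box occurred in 6 (16.7%), against 7.15% of all windows and 7.84% of the protein-coding ones. The GC box, searched on both strands, occurred in 24 (66.7%), against 35.7% and 46.2%, and CCAAT, also on both strands, in 13 (36.1%), against 37.4% and 38.2%. The 23 windows of genes called higher in GC cells held an E2F heptamer in 30.4% of cases and the 13 other windows in 30.8%. A GC box was present in 78.3% of the former and 46.2% of the latter, CCAAT in 47.8% and 15.4%, and the E-box in 21.7% and 7.69%. Windows of the same gene were counted separately: the 23 hold repeated windows of Nme1, and the 13 those of Impdh1, Ctps, Ctps2 and Nme2. These are thus shares of windows and not of genes. They describe letters in the windows and were not tested. The start sites of Ppat and Paics, the first and a middle enzyme of purine synthesis, lie head to head on chromosome 5, with windows at chr5:76951529-76951828 on the minus strand and chr5:76951052-76951351 on the plus strand.

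Before the values, the labels of the cells were checked on marker genes. B cell markers were high on all arrays, with mean log2 signals from 12.88 to 13.67, and 0 of the 6 tested were higher and 2 lower in GC cells. Of 6 GC markers 5 were higher in GC cells (median log2 difference 2.59), and of 6 naive follicular markers 6 were lower (median −3.42). All 9 tested cell division markers were higher (median 3.04), with array means from 11.66 to 12.04 in GC cells and of 8.44, 9.80, 8.64 and 9.11 on naive replicates 1 to 4. All 10 neutrophil markers were also higher (median 3.22), with array means from 7.40 to 9.29 in naive and from 10.53 to 11.31 in GC samples. Among markers of other cells, 1 of 7 macrophage genes was higher and 2 lower, 0 of 5 T cell genes higher and 1 lower, 2 of 6 plasma cell genes higher and 1 lower, and 0 of 4 erythroid genes higher and 1 lower. The gap between the 3′ and 5′ probe sets of Actb, a sign of RNA integrity, was 1.46 ± 0.17 (SD, n = 4) in naive, 0.98 ± 0.20 (SD, n = 3) in B1-8 and 0.78 ± 0.08 (SD, n = 3) in V23 samples. The part of the division, neutrophil and Actb differences in the results below was not tested. In sorted bulk samples a larger share of cells of one type and more RNA per cell cannot be told apart.

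Most of the module was higher in GC B cells than in naive B cells. With the mean of both GC groups set against naive, 23 of the 33 genes rose, 3 fell and 7 did not pass the test (limma, Benjamini-Hochberg adjusted p below 0.05 over all 17204 genes). Over all tested genes 41.5% were called, 20.5% higher and 21% lower, so the module's calls lay on the higher side, 23 of 33, where those of the genome were about even. The median log2 difference was 0.88 over the 33 genes and 0.06 over all tested genes. Of the 33 genes 11 were called higher by at least 2-fold, against 7.02% of all tested genes. None of the 33 was called lower by that much, against 8.17%. All 6 GC arrays lay above all 4 naive arrays for 20 genes and below them for 3, where 17% and 18.5% of all genes did so. Naive replicate 2 had the highest naive mean of the division markers, 9.80, and naive replicate 4 the highest naive mean of the neutrophil markers, 9.29. Replicate 2 was also the highest naive array for the GC markers, at 10.365. Replicate 4 was also highest for the macrophage, T cell, plasma cell and erythroid markers, at 8.90, 7.77, 10.58 and 7.11. Without either naive replicate 2 or 4, 23 genes were called higher and 3 lower, and without both 21 and 3.

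The mean log2 signal over the 33 genes was 10.34, 10.46, 10.31 and 10.37 on the naive arrays, 11.13, 11.13 and 11.00 on the B1-8 arrays and 11.16, 11.25 and 11.19 on the V23 arrays. The groups of GC and naive arrays did not overlap in this mean. Naive replicate 2 was the highest naive array for 13 of the 33 genes and replicate 4 for 9, replicate 1 for 7 and replicate 3 for 4.

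**Figure D1:**
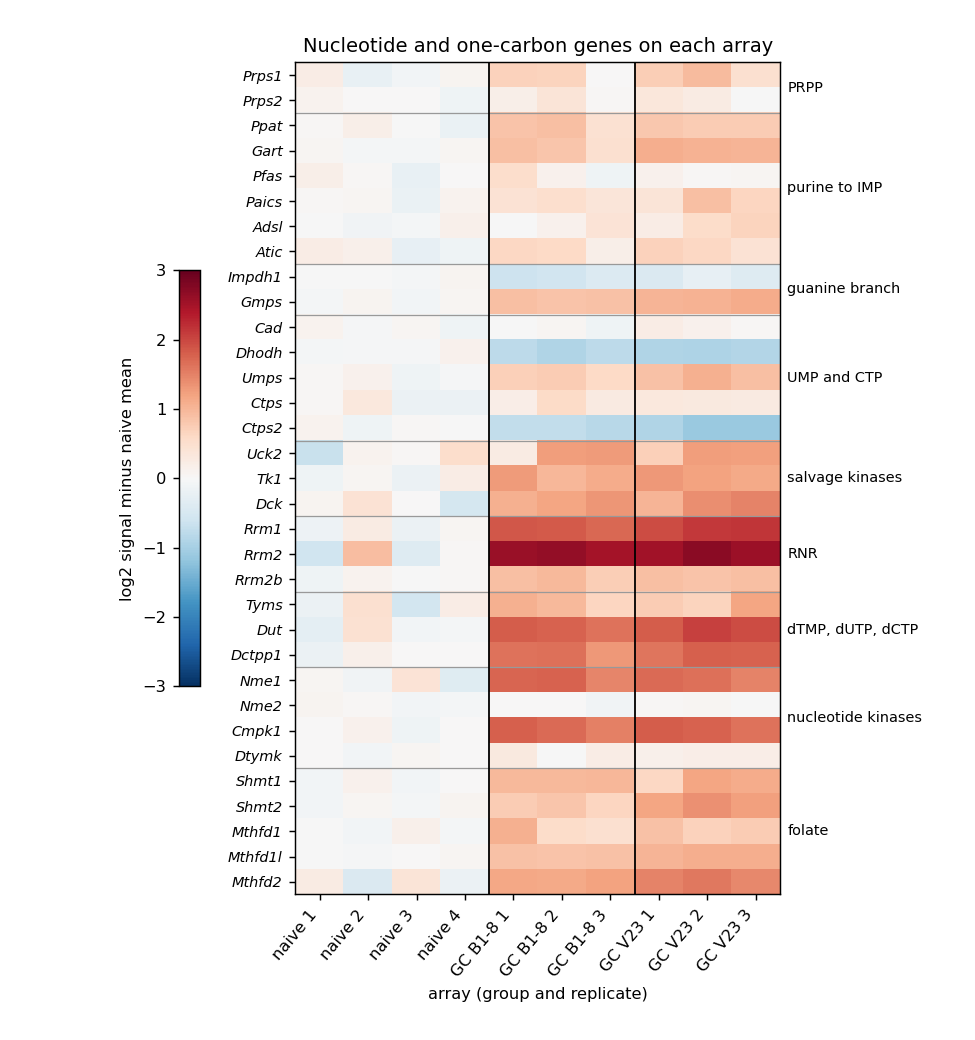
Map of the 33 measured genes (rows, grouped by role) on the 10 arrays (columns, by group and replicate), coloured by the log2 signal minus the mean of the 4 naive arrays. Rrm1, Rrm2, Dut, Dctpp1, Nme1 and Cmpk1 are among the deepest red on all 6 GC arrays, and Impdh1, Dhodh and Ctps2 are blue on all 6.

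Ribonucleotide reductase had the largest median difference of the 9 role groups (1.94), and all 3 of its genes rose. Rrm1 encodes the large catalytic subunit, Rrm2 the small subunit that is made in dividing cells, and Rrm2b a p53-inducible small subunit that serves repair and resting cells. Rrm2 (1434437_x_at) gave log2 signals of 10.15, 11.67, 10.36 and 10.79 on the naive arrays, 13.32, 13.38 and 13.23 on the B1-8 arrays and 13.26, 13.44 and 13.30 on the V23 arrays. All GC arrays lay above all naive arrays, and replicate 2 was the high array of a wide naive group. Rrm2 rose by 2.58 ± 0.27 (SE; limma adjusted p = 8.97e-05) on the log2 scale, 5.98-fold, and by 3.07 without naive replicates 2 and 4. Its other probe sets differed by 3.05 and 2.89. Rrm1 (1415878_at) gave 10.56, 10.96, 10.54 and 10.75 on the naive arrays, 12.58, 12.54 and 12.42 on the B1-8 arrays and 12.67, 12.82 and 12.84 on the V23 arrays as log2 signals. Its groups did not overlap, naive replicate 2 was again the highest naive array, and all 3 V23 arrays lay above all 3 B1-8 arrays. The log2 rise of Rrm1 was 1.94 ± 0.10 (SE; limma adjusted p = 3.67e-06), 3.84-fold. Rrm2b (1433773_at) read 10.56, 10.80, 10.69 and 10.72 on the naive arrays, 11.58, 11.66 and 11.44 on the B1-8 arrays and 11.61, 11.54 and 11.59 on the V23 arrays in log2 signal. The naive arrays spanned a narrow range and all GC arrays lay above it. Rrm2b rose by 0.88 ± 0.08 (SE; limma adjusted p = 3.82e-05) in log2 units, 1.83-fold. Other probe sets of Rrm2b differed by 0.95, 2.12 and 1.74, and with the mean of all its probe sets the difference was 1.42.

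All 3 enzymes that make dTMP or keep dUTP and dCTP derivatives low rose. Dctpp1, a pyrophosphatase that clears modified dCTP, had the smallest p of them, with log2 signals of 8.94, 9.27, 9.13 and 9.13 on the naive arrays, 10.76, 10.76 and 10.43 on the B1-8 arrays and 10.73, 10.90 and 10.88 on the V23 arrays. The lowest GC array lay more than 1 log2 unit above the highest naive array, and the rise was 1.62 ± 0.10 (SE; limma adjusted p = 6.85e-06), 3.08-fold. Dut, the dUTPase that makes the dUMP used by thymidylate synthase and keeps uracil out of DNA, rose by 1.84 ± 0.14 (SE; limma adjusted p = 1.86e-05) in log2 units, 3.58-fold. Tyms, thymidylate synthase, was read from a dim probe set, 1442192_at, with log2 signals of 6.03, 6.68, 5.66 and 6.43 on the naive arrays, 7.26, 7.18 and 6.86 on the B1-8 arrays and 6.97, 6.88 and 7.40 on the V23 arrays. All GC arrays lay above all naive arrays, with naive replicate 2 just below the lowest of them. The log2 rise was 0.89 ± 0.21 (SE; limma adjusted p = 0.00918), 1.85-fold. Its 3 other probe sets, with mean log2 signals from 3.88 to 6.27, differed by −0.80, −0.48 and −1.12, so the direction for Tyms rests on the probe set chosen, and the mean of all 4 gave a log2 difference of −0.38 (limma adjusted p = 0.32).

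All 3 nucleoside salvage kinases rose. Tk1, the cytosolic thymidine kinase of dividing cells, read 10.06, 10.26, 10.02 and 10.42 on the naive arrays, 11.47, 11.19 and 11.31 on the B1-8 arrays and 11.49, 11.39 and 11.32 on the V23 arrays as log2 signals from 1416258_at. GC and naive arrays did not overlap, while the GC groups overlapped each other, and the rise was 1.17 ± 0.10 (SE; limma adjusted p = 3.96e-05) in log2 units, 2.25-fold. Dck, deoxycytidine kinase, which is known for its high activity in lymphocytes, rose by 1.25 ± 0.18 (SE; limma adjusted p = 0.000637), 2.38-fold. Uck2, a uridine and cytidine kinase, had the widest spread of the 3, and its log2 signals were 8.63, 9.41, 9.35 and 9.83 on the naive arrays, 9.56, 10.57 and 10.60 on the B1-8 arrays and 10.02, 10.55 and 10.55 on the V23 arrays. Naive replicate 4 lay above B1-8 replicate 1, so the groups overlapped. The log2 rise of Uck2 was 1.00 ± 0.29 (SE; limma adjusted p = 0.0223), 2.00-fold, and it did not pass without naive replicate 1 (adjusted p = 0.0584). Other probe sets of Uck2 differed by 1.32, 2.23, 1.18 and 1.35, and a dim one, at a mean log2 signal of 3.25, by 1.9. With the mean of all its probe sets Uck2 was also called higher (limma adjusted p = 0.000305). Deoxynucleosides and nucleosides that feed these kinases also pass through enzymes outside the 33, described further on.

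Of 4 nucleotide kinases, which build nucleotide triphosphates from monophosphates, 2 rose. Cmpk1, the UMP and CMP kinase, had the smallest p of all 33 genes, with log2 signals of 11.74, 11.86, 11.60 and 11.73 on the naive arrays, 13.53, 13.44 and 13.24 on the B1-8 arrays and 13.54, 13.51 and 13.36 on the V23 arrays (1423073_at). The gap between its lowest GC array and its highest naive array was wide beside the spread inside each group. Cmpk1 rose by 1.71 ± 0.09 (SE; limma adjusted p = 3.43e-06), 3.26-fold. Nme1, a nucleoside diphosphate kinase, rose by 1.64 ± 0.15 (SE; limma adjusted p = 4.47e-05), 3.13-fold, and its other probe set differed by 0.88. Nme2, its neighbour and near copy, read 13.61, 13.57, 13.45 and 13.47 on the naive arrays, 13.52, 13.53 and 13.43 on the B1-8 arrays and 13.56, 13.59 and 13.52 on the V23 arrays in log2 signal, with all 3 groups overlapping and a difference of 0.00 ± 0.07 (SE; limma adjusted p = 0.979). Transcripts this alike can share hybridization, so the split between Nme1 and Nme2 is uncertain. Dtymk, the kinase that turns dTMP into dTDP, differed by 0.17 ± 0.08 (SE; limma adjusted p = 0.112) on the probe set used. Its other probe sets differed by 0.66 and 1.65, and with the mean of all 3 the difference was 0.83 (limma adjusted p = 0.000111).

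**Figure D2:**
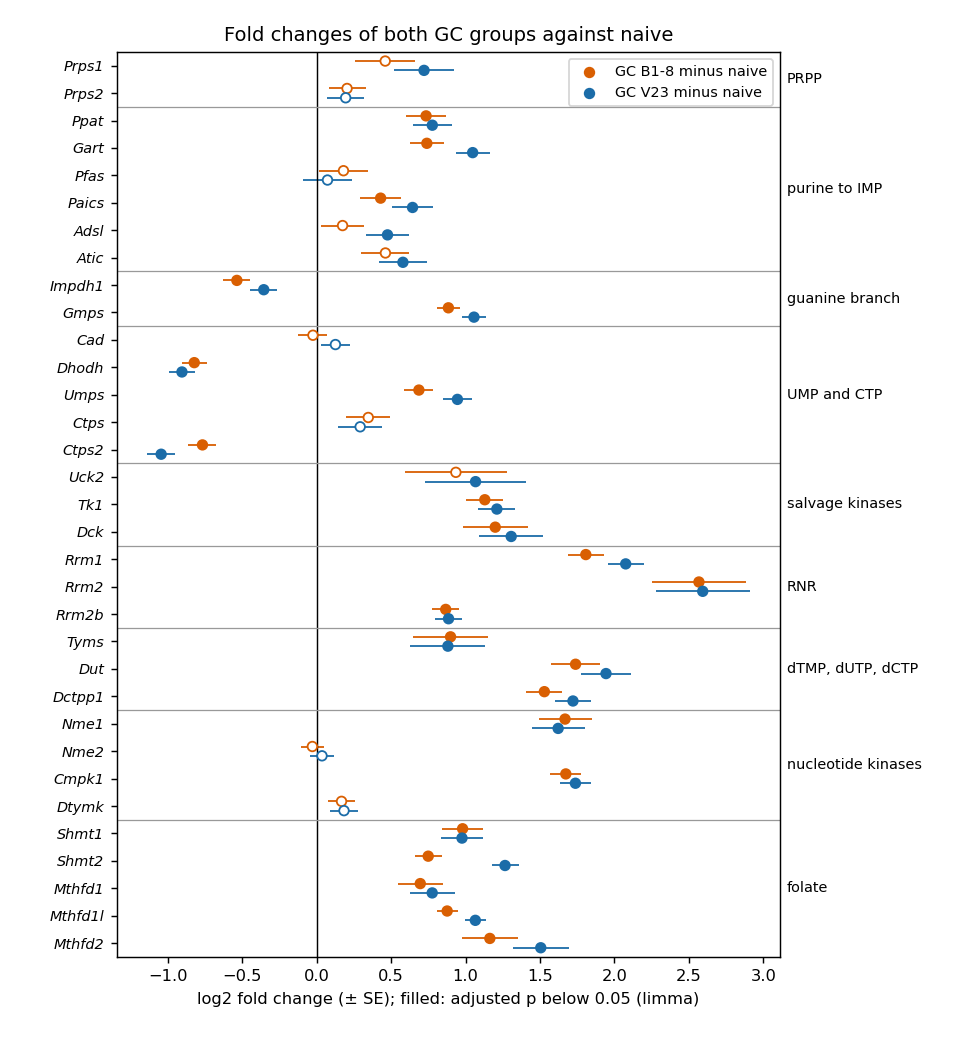
Log2 fold change against naive (x axis, ± SE from limma) of each gene (y axis, grouped by role) in GC B1-8 (orange) and GC V23 (blue), filled where the adjusted p was below 0.05. Rrm2 lies furthest to the right in both lines, at 2.57 and 2.59, and Dhodh, Ctps2 and Impdh1 are the genes called on the left.

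All 5 folate one-carbon enzymes rose, with a median log2 difference of 0.98 and for each of them every GC array lay above every naive array. The mitochondrial ones, Shmt2, Mthfd2 and Mthfd1l, take the one-carbon unit from serine and carry it to formate, and the cytosolic ones, Shmt1 and Mthfd1, move it between serine, folate and purines. Mthfd1l, which releases formate, had log2 signals of 10.66, 10.65, 10.69 and 10.74 on the naive arrays, 11.56, 11.54 and 11.57 on the B1-8 arrays and 11.71, 11.77 and 11.76 on the V23 arrays (1456653_a_at). The spread within each group was small, and the rise was 0.97 ± 0.06 (SE; limma adjusted p = 6.51e-06), 1.96-fold. Shmt2, the mitochondrial serine hydroxymethyltransferase, gave 11.06, 11.19, 11.09 and 11.22 on the naive arrays, 11.89, 11.98 and 11.79 on the B1-8 arrays and 12.33, 12.51 and 12.36 on the V23 arrays from 1455084_x_at. Its 3 groups were fully apart, in the order naive, B1-8, V23. Shmt2 rose by 1.01 ± 0.08 (SE; limma adjusted p = 1.78e-05), 2.01-fold. Mthfd2, the mitochondrial dehydrogenase and cyclohydrolase that is typical of dividing cells, read 9.59, 8.91, 9.72 and 9.16 on the naive arrays, 10.50, 10.48 and 10.54 on the B1-8 arrays and 10.84, 10.93 and 10.78 on the V23 arrays in log2 signal. Naive replicates 1 and 3 were its highest naive arrays, unlike the division markers, and all GC arrays lay above them. On the probe sets used Mthfd2 had the largest rise of the 5, 1.33 ± 0.16 (SE; limma adjusted p = 0.000189), 2.52-fold. Its other probe set differed by 1.83. On the cytosolic side Shmt1 rose by 0.98 ± 0.12 (SE; limma adjusted p = 0.000201), 1.97-fold. Other probe sets of Shmt1 differed by 1.95, 1.01 and 3.62, the last with a naive mean log2 signal of 3.7. Which of the 5 rose most thus depends on the probe set. Mthfd1, the trifunctional cytosolic enzyme, had log2 signals of 10.29, 10.21, 10.44 and 10.23 on the naive arrays, 11.36, 10.83 and 10.77 on the B1-8 arrays and 11.16, 10.99 and 11.05 on the V23 arrays. B1-8 replicate 1 was its highest array, and the rise of 0.74 ± 0.13 (SE; limma adjusted p = 0.0016), 1.67-fold, was the smallest of the 5.

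Of the 6 enzymes of purine synthesis from PRPP to IMP, 4 rose and 2 did not pass the test, with a median log2 difference of 0.53. Ppat, the amidotransferase that commits PRPP to purines, had log2 signals of 9.16, 9.31, 9.10 and 8.92 on the naive arrays, 9.96, 10.02 and 9.58 on the B1-8 arrays and 9.92, 9.88 and 9.88 on the V23 arrays (1452831_s_at). Its GC arrays lay above its naive arrays without overlap, and the rise was 0.76 ± 0.11 (SE; limma adjusted p = 0.0007), 1.69-fold. Gart, a trifunctional enzyme that uses formyl folate, had the smallest p of the 6 and gave 9.94, 9.82, 9.83 and 9.96 on the naive arrays, 10.80, 10.72 and 10.36 on the B1-8 arrays and 10.97, 10.93 and 10.91 on the V23 arrays as log2 signals. B1-8 replicate 3 was its lowest GC array and still lay above all naive arrays. Gart rose by 0.89 ± 0.10 (SE; limma adjusted p = 0.000118), 1.86-fold. Paics and Atic, which catalyse middle and last steps, rose by 0.54 ± 0.11 and 0.52 ± 0.14 in log2 units (SE; limma adjusted p = 0.00532 and 0.0146). Adsl, adenylosuccinate lyase, differed by 0.32 ± 0.12 (SE; limma adjusted p = 0.0669), short of the threshold, and passed with quantile normalization (adjusted p = 0.0274) and with each array centred on its median (0.0218). Pfas, which makes the amidine intermediate, had the largest p, with log2 signals of 9.92, 9.79, 9.52 and 9.77 on the naive arrays, 10.29, 9.88 and 9.62 on the B1-8 arrays and 9.88, 9.78 and 9.80 on the V23 arrays. Its groups overlapped throughout and the difference was 0.13 ± 0.14 (SE; limma adjusted p = 0.511). The mean of all probe sets of a gene ended the calls of Ppat (adjusted p = 0.0505 by limma) and Atic (0.258), and Atic was also lost without naive replicates 2 and 4 (0.0688). None of the 6 reached 2-fold, against 4 of the 6 ribonucleotide reductase and dTMP, dUTP and dCTP genes.

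PRPP synthetases make the ribose phosphate donor that purine and pyrimidine routes share. Prps1 gave log2 signals of 10.73, 10.28, 10.41 and 10.58 on the naive arrays, 11.20, 11.16 and 10.52 on the B1-8 arrays and 11.24, 11.44 and 10.97 on the V23 arrays (1416052_at). B1-8 replicate 3 lay inside the naive range and the other GC arrays lay above it. The rise of Prps1 was 0.59 ± 0.17 (SE; limma adjusted p = 0.0216), 1.51-fold. It did not pass by limma without naive replicate 2 (adjusted p = 0.0632), naive replicate 3 (0.0591) or naive replicates 2 and 4 together (0.131). Prps2 had log2 signals of 12.25, 12.17, 12.15 and 12.01 on the naive arrays, 12.32, 12.54 and 12.18 on the B1-8 arrays and 12.49, 12.39 and 12.14 on the V23 arrays, with GC and naive arrays overlapping and a difference of 0.20 ± 0.11 (SE; limma adjusted p = 0.17). Averaging over its probe sets gave a difference of 0.49 (limma adjusted p = 0.0029).

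The guanine branch split. Gmps, which turns XMP into GMP, had log2 signals of 10.70, 10.82, 10.65 and 10.81 on the naive arrays, 11.66, 11.61 and 11.63 on the B1-8 arrays and 11.77, 11.78 and 11.86 on the V23 arrays (1433567_at). The 3 groups were apart, and the rise was 0.97 ± 0.07 (SE; limma adjusted p = 1.14e-05), 1.96-fold. Its dimmer probe sets differed by −0.29 and −0.24, so this rise was read on the brightest of the 3 alone, and with their mean the difference was 0.15 (limma adjusted p = 0.174). Impdh1, the isozyme of IMP dehydrogenase that is generally regarded as constitutive, fell: its log2 signals were 9.54, 9.55, 9.49 and 9.65 on the naive arrays, 8.93, 8.99 and 9.14 on the B1-8 arrays and 9.13, 9.31 and 9.16 on the V23 arrays (1423239_at). All GC arrays lay below all naive arrays. The log2 difference was −0.45 ± 0.08 (SE; limma adjusted p = 0.00158), a level of 0.734 times naive.

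The pyrimidine route to UMP and CTP was also divided, with 1 gene higher, 2 lower and 2 not called among 5 and a median log2 difference of 0.05. Cad, the fused enzyme of the first 3 steps, had log2 signals of 10.17, 10.01, 10.11 and 9.92 on the naive arrays, 10.05, 10.12 and 9.92 on the B1-8 arrays and 10.27, 10.18 and 10.09 on the V23 arrays (1452830_s_at). Naive, B1-8 and V23 arrays all overlapped, and the difference was 0.05 ± 0.08 (SE; limma adjusted p = 0.672). A second bright probe set differed by 0.02, while the dimmest, at a mean log2 signal of 3.95, differed by 2.39, and the mean of all 3 gave 0.82 (limma adjusted p = 0.0115). Dhodh, the mitochondrial dihydroorotate dehydrogenase that carries out the fourth step, gave 9.42, 9.45, 9.46 and 9.63 on the naive arrays, 8.71, 8.58 and 8.70 on the B1-8 arrays and 8.58, 8.55 and 8.61 on the V23 arrays in log2 signal (1417581_at). No GC array reached the lowest naive array. Dhodh fell, by a log2 difference of −0.86 ± 0.07 (SE; limma adjusted p = 2.66e-05), to 0.549 times naive, and its other probe set differed by −0.69. Umps, which carries out the last steps to UMP, rose by 0.82 ± 0.08 (SE; limma adjusted p = 7.94e-05), 1.76-fold. Its next probe sets by brightness differed by 0.83 and 0.55 and a dim one by −1.34, and the mean of all 4 gave 0.21 (limma adjusted p = 0.505). Dhodh and Umps, which act in neighbouring steps, thus differed from naive in opposite directions on the probe sets used.

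CTP synthetase has isozymes encoded by Ctps and Ctps2. The log2 signals of Ctps were 10.43, 10.72, 10.22 and 10.23 on the naive arrays, 10.59, 10.98 and 10.66 on the B1-8 arrays and 10.72, 10.68 and 10.67 on the V23 arrays (1416563_at). Naive replicate 2 lay above 4 of the 6 GC arrays, and the difference was 0.32 ± 0.12 (SE; limma adjusted p = 0.0725), which passed without that array (adjusted p = 0.0188). Ctps2 gave 10.39, 10.15, 10.31 and 10.25 on the naive arrays, 9.54, 9.53 and 9.45 on the B1-8 arrays and 9.36, 9.17 and 9.15 on the V23 arrays (1448111_at). The 3 groups did not overlap, with naive highest and V23 lowest. Ctps2 fell, by a log2 difference of −0.91 ± 0.08 (SE; limma adjusted p = 3.56e-05), to 0.533 times naive. Its dimmer probe sets differed by −0.01 and 0.74, so this call, like those of Gmps and Tyms, rests on 1 probe set, and with the mean of the 3 the difference was −0.06 (limma adjusted p = 0.754).

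**Figure D3:**
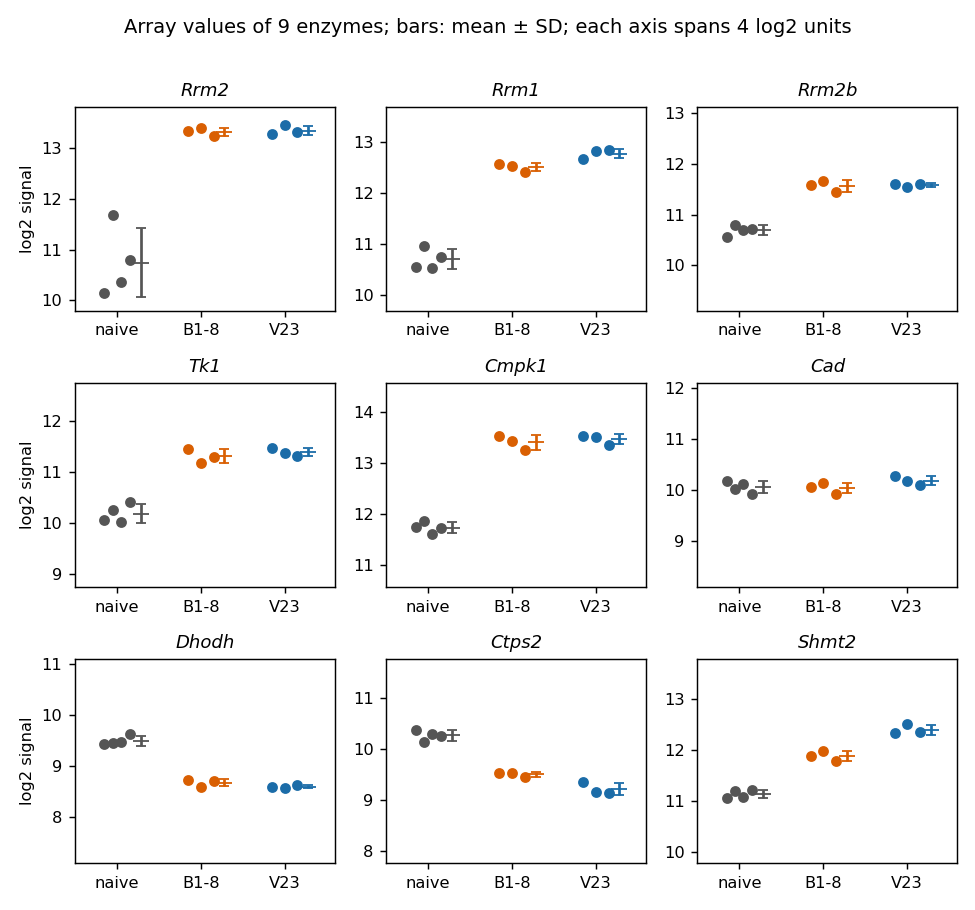
Log2 signal (y axis, each panel spanning 4 log2 units) of 9 enzymes on every array of the naive, B1-8 and V23 groups, with bars for the mean ± SD beside the points. Cad overlaps in all groups, Dhodh and Ctps2 are lower on all GC arrays, and naive replicate 2 is the high naive point of Rrm2.

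Each GC line was also set against naive by itself, with the naive arrays shared between both comparisons. In B1-8 cells 20 of the 33 genes were higher and 3 lower (median log2 difference 0.74), where 33.7% of all genes were called, 16.4% higher and 17.3% lower. In V23 cells 24 were higher and 3 lower (median 0.89), where 37.9% of all genes were called, 18.2% higher and 19.7% lower. The genes called in V23 and not in B1-8 were Prps1, Adsl, Atic and Uck2. For Prps1 the log2 differences were 0.46 ± 0.20 in B1-8 and 0.72 ± 0.20 in V23 (SE; limma adjusted p = 0.116 and 0.0206). For Adsl they were 0.17 ± 0.15 and 0.48 ± 0.15 (SE; limma adjusted p = 0.417 and 0.0324). Neither gene was called between the lines, so these calls do not show that the lines differ. No gene was called in B1-8 alone, and Prps2, Pfas, Cad, Ctps, Nme2 and Dtymk were called in neither.

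Set directly against each other, the GC lines gave 0 calls among the 33 genes (limma, adjusted p below 0.05), where 0.0233% of all genes, 4 of 17204, were called, 0.00581% higher in B1-8 and 0.0174% lower. At an unadjusted p below 0.05 by limma there were 5 of the 33, against 1328 of all 17204 genes. The 5 were Gart, Umps, Ctps2, Shmt2 and Mthfd1l. The B1-8 mean was below the V23 mean for 25 of the 33 genes (75.8%), against 49.1% of all genes, with a median log2 difference of −0.11 in the module and 0.00 over all genes. All 3 B1-8 arrays lay below all 3 V23 arrays for 8 genes, Gart, Gmps, Umps, Rrm1, Dut, Shmt2, Mthfd1l and Mthfd2, and above them for 1, Ctps2. Over all genes 6.63% lay below and 7.07% above in that way. The cell division markers lay the same way: all 9 had a B1-8 mean below the V23 mean, with a median log2 difference of −0.23 and 0 of 9 called (limma), also 0 at an unadjusted p below 0.05. Their array means ran from 11.66 to 11.81 in B1-8 and from 11.96 to 12.04 in V23, and their part in the module's difference was not tested.

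Shmt2 had the smallest p between the lines. On the arrays given above its B1-8 log2 signals ran from 11.79 to 11.98 and its V23 signals from 12.33 to 12.51. The log2 difference, B1-8 minus V23, was −0.52 ± 0.10 (SE; limma unadjusted p = 0.000593, adjusted p = 0.252), with a 95% interval from −0.74 to −0.29. It passed only when the variance prior followed the intensity with robust moderation (limma adjusted p = 0.0443). Its 3 other probe sets differed between the lines by −0.61, −0.17 and 0.14. Ctps2 came second, with a difference of 0.28 ± 0.10 (SE; unadjusted p = 0.0235, limma adjusted p = 0.571) and an interval from 0.05 to 0.51. The intervals bound what these 3 arrays a line can show: all 33 lay within 1 log2 unit of 0 and 18 within 0.5, and they reached furthest for Uck2 (lower bound −0.97) and Rrm2 (upper bound 0.75). The absence of calls does not show that the lines are alike within those bounds.

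**Figure D4:**
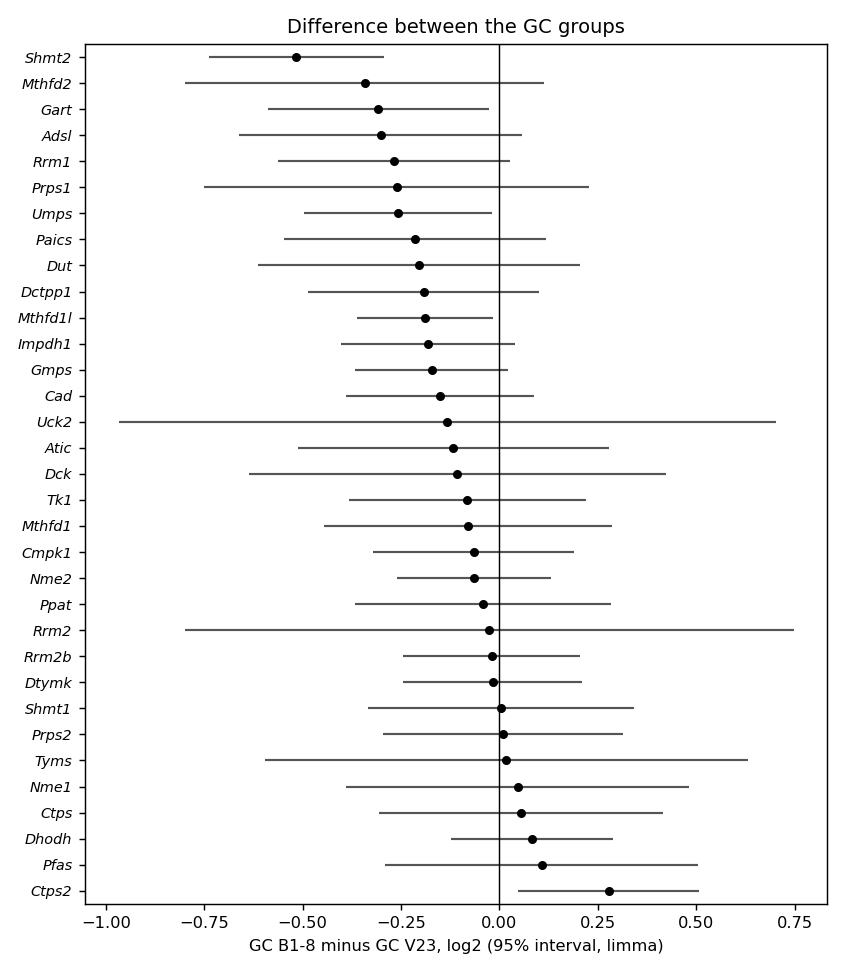
Difference between the GC lines, B1-8 minus V23, in log2 units (x axis) for each of the 33 genes (y axis, sorted), with 95% intervals from limma. Shmt2 lies at −0.52 with an interval from −0.74 to −0.29, and all intervals stay within 1 log2 unit of 0.

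Other genes of the same metabolism, in 7 lists, were read in the same way. Their counts stand beside 20.5% higher and 21% lower over all tested genes. Whether any of the 7 lists departs from these shares was not tested. Among other salvage enzymes 4 of 14 tested genes were higher and 3 lower (median log2 difference 0.20). Ada, adenosine deaminase, had log2 signals of 8.39, 9.91, 8.12 and 8.69 on the naive arrays, 12.90, 12.98 and 12.66 on the B1-8 arrays and 12.77, 12.83 and 12.74 on the V23 arrays. Naive replicate 2 was its high naive array, far below every GC array, and Ada rose by 4.03 ± 0.31 (SE; limma adjusted p = 1.98e-05), 16.4-fold. Adk, adenosine kinase, and Pnp, purine nucleoside phosphorylase, rose by 2.25 ± 0.13 and 1.95 ± 0.10 (SE; limma adjusted p = 5.01e-06 and 2.76e-06). Hprt, which salvages hypoxanthine and guanine, rose by 0.67 ± 0.08 (SE; limma adjusted p = 0.000202). Tk2, the mitochondrial thymidine kinase, fell, by a log2 difference of −1.59 ± 0.16 (SE; limma adjusted p = 8.48e-05), opposite in direction to cytosolic Tk1. Among other purine branch enzymes and nucleotide kinases 5 of 12 were higher and 3 lower (median 0.40). Cmpk2, a mitochondrial and interferon-inducible kinase, fell, with a log2 difference of −2.00 ± 0.14 (SE; limma adjusted p = 1.29e-05), where its cytosolic counterpart Cmpk1 rose. Nme7, Adss and Nme6 rose by 1.15 ± 0.11, 0.62 ± 0.07 and 1.01 ± 0.13 (SE; limma adjusted p = 5.59e-05, 0.000125 and 0.000308).

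Of the genes for nucleotide breakdown and cleaning of the pool 8 of 15 were higher and 2 lower (median 0.57). Nt5c2, a cytosolic nucleotidase, Nt5c3b, another, and Nudt1, which clears oxidized purine nucleotides, rose by 1.09 ± 0.08, 0.89 ± 0.09 and 0.84 ± 0.09 (SE; limma adjusted p = 1.93e-05, 5.77e-05 and 9.55e-05). Upb1, the last enzyme of pyrimidine breakdown, fell, with a log2 difference of −3.67 ± 0.34 (SE; limma adjusted p = 4.52e-05), with every GC array below log2 4, where signals carry little order. Samhd1, which cleaves deoxynucleotides, rose by 0.57 ± 0.09 (SE; limma adjusted p = 0.000746) on the probe set used, and had a log2 difference of −0.067 with the mean of its probe sets. The genes called higher also include Nt5m and Itpa, named here after their values were seen, whose calls were lost under 9 and 3 alternatives (limma adjusted p from 0.0601 to 0.139 and from 0.0528 to 0.0636).

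The 3 serine synthesis enzymes, which feed the folate cycle, all rose. Psat1, the aminotransferase of the route, read 10.26, 10.85, 10.36 and 10.54 on the naive arrays, 12.29, 12.34 and 12.30 on the B1-8 arrays and 12.52, 12.72 and 12.72 on the V23 arrays in log2 signal, without overlap, and rose by 1.98 ± 0.12 (SE; limma adjusted p = 6.32e-06), 3.94-fold. Phgdh and Psph, the first and last enzymes, rose by 0.64 ± 0.06 and 0.72 ± 0.09 (SE; limma adjusted p = 7.71e-05 and 0.000277). Of 13 other folate enzymes, carriers and glycine cleavage genes 1 was higher and 4 were lower (median −0.02). Ggh, the hydrolase that shortens folate polyglutamates, fell, with a log2 difference of −2.26 ± 0.21 (SE; limma adjusted p = 4.31e-05), with means of 8.56 ± 0.19 (SD, n = 4) in naive cells, 6.92 ± 0.26 (SD, n = 3) in B1-8 cells and 5.68 ± 0.52 (SD, n = 3) in V23 cells. Mtfmt and Gcsh fell, by log2 differences of −0.72 ± 0.12 and −0.31 ± 0.07, and Dld rose by 0.40 ± 0.09 (SE; limma adjusted p = 0.00128, 0.0102 and 0.00685). The call of Gcsh was lost with each array centred on its median (limma adjusted p = 0.126) and that of Dld with the mean of its probe sets (0.121) and without naive replicates 2 and 4 (0.0661). The remaining gene called lower was Slc19a1, the reduced folate carrier, named here after its values were seen. Its log2 difference was −0.33 ± 0.11 (SE; limma adjusted p = 0.0452), its arrays overlapped, neither line by itself was called against naive, and the call was lost under 13 alternatives (adjusted p from 0.0505 to 0.662).

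In the methionine cycle 1 of 8 genes was higher and 1 lower (median −0.05). Ahcy, which clears S-adenosylhomocysteine, rose by 1.16 ± 0.08 (SE; limma adjusted p = 1.24e-05), and Ahcyl2, a related protein, fell, with a log2 difference of −1.14 ± 0.11 (SE; limma adjusted p = 6.81e-05). Cbs and Mtap differed by −1.13 ± 0.40 and −0.34 ± 0.17 (SE; limma adjusted p = 0.051 and 0.159). Of 3 nucleoside transporters 1 was higher and 2 lower. Slc29a3, a lysosomal carrier, fell, with a log2 difference of −1.75 ± 0.13 (SE; limma adjusted p = 1.71e-05), without overlap. Slc29a1 rose and Slc29a2 fell, with log2 differences of 0.65 ± 0.20 and −1.24 ± 0.40 (SE; limma adjusted p = 0.0273 and 0.0359). Slc29a1 lost its call without naive replicate 1, 2 or 3, B1-8 replicate 3 or V23 replicate 1 or 2, with adjusted p from 0.0544 to 0.0787 by limma. Slc29a2 lost its call without any 1 of the naive arrays, B1-8 replicate 3 or V23 replicate 2 or 3, with adjusted p from 0.0516 to 0.0842 by limma. Its call was also lost without naive replicates 2 and 4 together (limma adjusted p = 0.124) and with quantile normalization (0.0518) or centring (0.0504).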

How the data were processed

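The deposited log2 probe set signals of 10 Affymetrix whole-genome mouse arrays were taken unchanged. The submitters' processing notes name GCRMA as the authors' tool, without a version, but the deposited values have the form of scaled signals: unlogged and trimmed by 2% at each end, their mean was 500 on every array. Arrays give no read depth, so their number and the signal over background limit precision: residuals had a median SD of 0.889 where a gene's mean was under log2 6, and of 0.118 where it was over log2 10.

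Of 45101 probe sets, 34958 carry 1 gene symbol, 932 several and 9211 none. The brightest single-symbol probe set stood for each of 18194 genes. The filter kept the 17204 genes that exceeded log2 4 on 3 or more arrays. The 3 group means were fitted jointly in limma 3.58.1 (R 4.3.3), moderated by empirical Bayes, and two-sided p-values were adjusted by Benjamini-Hochberg over all of these genes. A difference with no group named is the mean of both GC groups minus naive. The residual degrees of freedom were 7. The code was tested on simulated data.

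The 34 genes and all gene lists were chosen with earlier results of these data known. Values on every array are given for 12 fixed genes, for the smallest and largest p in each role group, for genes called lower and for the leading genes between the lines. For the other lists the 4 smallest p and a few fixed genes are named. Other filters, probe set rules, normalizations, moderations, a replicate block and left-out arrays were tried as alternatives. The labels do not say whether replicate numbers pair the samples, and the main fit used no pairing. Between arrays of the same number the correlation of deviations ran from -0.02 to 0.07 over 9 pairs. Between arrays of different numbers it ran from -0.07 to 0.08 over 24 pairs. Correlations this small over all genes cannot decide whether samples were paired.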

Additional observations from a re-analysis of the deposited data

How the results depend on the processing

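Of the 26 genes of the module called against naive, 18 kept their call under every alternative that gave them a value, 20 for most genes and 19 for Dck, Mthfd1l and Nme1, which have no probe set left without _x_at, _s_at and _a_at ones. The exceptions were Atic, Ctps2, Gmps, Ppat, Prps1, Tyms, Uck2 and Umps. The mean of all probe sets of a gene ended the calls of Ppat (log2 difference 0.75, adjusted p = 0.0505 by limma), Atic (0.32, 0.258), Gmps (0.15, 0.174), Umps (0.21, 0.505) and Ctps2, and called Prps2 (0.49, 0.0029), Cad (0.82, 0.0115) and Dtymk. It reversed Tyms (-0.38), Samhd1 (-0.067), Nt5c3 (-0.49), Mthfd2l (-0.54, and -0.97 without _x_at, _s_at and _a_at probe sets) and Slc19a1 (0.16). This alternative averages in dim probe sets by construction. Among genes outside the module, Prpsap1 and Guk1 lost their calls under 2 alternatives each and Ak4 under 1.

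Leaving out single arrays gave 22 to 24 genes of the module higher with both GC groups pooled. It gave 18 to 21 higher in B1-8 and 20 to 24 in V23, with 3 lower in each comparison. Over all tested genes, 3049 to 3547 were higher with both groups pooled, 2236 to 2879 in B1-8 and 2585 to 3179 in V23. Those lower numbered 3188 to 3561, 2507 to 2978 and 2955 to 3354 in the same order. Centring each array on its median moved the median of all genes from 0.06 to 0.16. With intensity trend and robust moderation 1 gene of the module, Shmt2, was lower in B1-8 than in V23. Calls over all genes between the lines, 1 higher and 3 lower in B1-8, became 12 and 5 with that moderation. Both counts were 0 with the mean of probe sets, without _x_at, _s_at and _a_at probe sets, with centring, with only the compared groups in the fit and without naive replicates 2 and 4. With values raised to log2 4, 2 genes were higher. Leaving out 1 array gave 0 to 9 higher (9 without V23 replicate 2) and 0 to 2 lower. The cause was not tested.

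With the replicate number as a replicate block, 23 genes of the module were higher and 3 lower than naive, and the calls over all genes between the lines were 0 higher and 0 lower. Whether the numbers pair the samples is not known.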
